A study of Mus musculus with 8 samples.

Results

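The Hedgehog pathway loci Shh, Ptch1, Gli2 and Gli3 were examined for OTX2 binding in the embryonic mouse subpallium by chromatin immunoprecipitation and sequencing (ChIP-seq). All 8 libraries came from wild-type CD-1 embryos at E12.5 (embryonic day), and each was made from pooled tissue of several embryos. The dissection took the septum with the medial and lateral ganglionic eminences, so whether a peak came from septal or eminence cells cannot be told apart. The 3 OTX2 libraries were precipitated with a goat antibody against OTX2, the 2 IgG libraries with normal goat IgG, and the 3 input libraries were chromatin without antibody. The third experiment was run without IgG. Members were the peaks of the deposited lists whose centre lay in 1 of 4 intervals of the mm9 genome. The Shh interval ran on chromosome 5 from 27700000 to 29000000, the Ptch1 interval on chromosome 13 from 63400000 to 63900000, the Gli2 interval on chromosome 1 from 120500000 to 121200000, and the Gli3 interval on chromosome 13 from 15350000 to 16050000. Together they covered 3.2 Mb and held 52 of the 26317 peaks of all 8 lists, 6 from OTX2 replicate 1, 5 from replicate 2 and 41 from replicate 3.

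Sonic hedgehog, encoded by Shh, is a secreted signal of the ventral midline and ventral telencephalon that patterns the medial ganglionic eminence. It binds the receptor Patched 1 (Ptch1), which otherwise holds the transducer Smoothened in check, and Ptch1 is itself a transcriptional target of the pathway. The zinc finger factors Gli2 and Gli3 act at the end of the pathway, Gli2 mainly as an activator and Gli3 mainly as a repressor that is processed when the signal is absent. OTX2, a homeodomain factor, is needed for the anterior brain to form, and the study concerned its part in regional patterning of the medial ganglionic eminence and septal identity.

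The peak coordinates are those of mm9, for which no gene annotation or genome sequence was used here, so no peak was placed in an exon, intron, UTR or promoter and no sequence under a peak was read. In the gene order of GRCm38, used for names only, the nearest protein-coding neighbours of Shh are Rbm33 on the lower side and Rnf32, followed by Lmbr1, on the upper side. Ptch1 lies between Fancc and Ercc6l2, Gli2 between Tfcp2l1 and Inhbb, and Gli3 between AW209491 and Inhba. The Shh interval had been described as holding the gene, near 28.79 Mb, with its far upstream desert. It reached 1.09 Mb to the lower side of that position and 0.21 Mb to the upper side. Shh is transcribed towards lower coordinates, and its limb enhancer is known to lie within Lmbr1, so the upstream side is the upper one and most of the interval lay downstream of the gene. Peaks on the upper side, out to the same reach of 1.09 Mb (29000001 to 29880000), are therefore given separately.

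RefSeq promoters were at hand for Ptch1, Gli2 and Gli3 and show what these loci share outside the binding data. They are the 250 bases before the annotated start, in GRCm38.p6 coordinates that are not on the scale of the peaks: chr13:63565736-63565985 on the minus strand for Ptch1, chr1:119053620-119053869 on the minus strand for Gli2 and chr13:15463473-15463722 on the plus strand for Gli3. Capitals mark CG dinucleotides.
Ptch1: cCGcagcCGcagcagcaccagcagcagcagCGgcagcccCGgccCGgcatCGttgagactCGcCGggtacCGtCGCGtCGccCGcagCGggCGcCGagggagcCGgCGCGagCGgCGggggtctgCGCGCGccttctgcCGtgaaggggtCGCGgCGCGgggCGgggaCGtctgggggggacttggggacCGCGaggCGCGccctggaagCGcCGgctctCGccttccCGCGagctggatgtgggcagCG
Gli2: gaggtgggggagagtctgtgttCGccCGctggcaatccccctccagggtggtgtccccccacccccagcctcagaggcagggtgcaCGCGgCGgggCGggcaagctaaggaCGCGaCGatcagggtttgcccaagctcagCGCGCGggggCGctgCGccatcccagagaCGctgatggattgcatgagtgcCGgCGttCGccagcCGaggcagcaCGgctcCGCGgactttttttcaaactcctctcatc
Gli3: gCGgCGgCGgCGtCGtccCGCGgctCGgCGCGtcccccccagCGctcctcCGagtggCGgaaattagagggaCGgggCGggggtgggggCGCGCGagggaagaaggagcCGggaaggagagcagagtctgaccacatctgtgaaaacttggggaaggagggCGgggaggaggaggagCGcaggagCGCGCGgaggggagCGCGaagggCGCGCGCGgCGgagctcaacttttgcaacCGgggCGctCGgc
These stretches held 41 CG dinucleotides in Ptch1, 22 in Gli2 and 34 in Gli3, against a median of 6.00 (interquartile range 2 to 16) over 32851 promoters. As many or more CG were found in 1.09% of promoters for Ptch1, 14.8% for Gli2 and 3.53% for Gli3. The OTX2 core motif TAATCC, searched on both strands over 250 bases before and 50 after the start, had no match in these promoters. Of 17 Hedgehog pathway genes listed for this search, 13 had a promoter in the table, and 0 of the 13 held the motif, against 8.14% of all 27025 genes. With only 13 genes, a count of 0 cannot be told apart from that share. A window this short says nothing about binding elsewhere in a locus.

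The first question was whether the loci carried OTX2 peaks beyond the background lists. Gli2 and Gli3, the pathway's effectors, had peaks in all 3 OTX2 lists, Ptch1 in replicates 1 and 3, and the Shh interval in replicate 3 alone. At Gli3 the lists of replicates 1, 2 and 3 held 3, 3 and 13 peaks. At Gli2 they held 1, 2 and 8 peaks. At Ptch1 they held 2, 0 and 15 peaks, and in the Shh interval 0, 0 and 5. The 3 input and 2 IgG lists had no peak in any of the 4 intervals. These background lists were short, with 138 to 235 peaks in the genome, and at their mean density 0.171 to 0.292 peaks would fall in 3.2 Mb, so a count of 0 is what that density gives. It allows up to 2.17% of the peaks of the shortest list, a limit that covers counting error only.

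**Figure D1:**
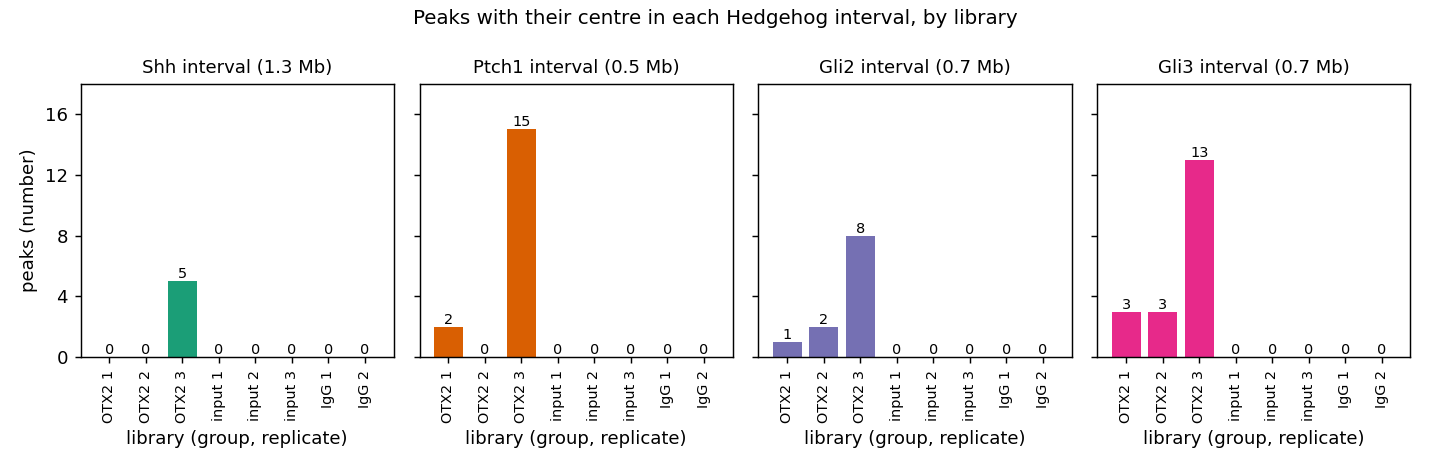
Number of peaks (y axis) with their centre in each of the 4 intervals, 1 bar per library and no error bars, for OTX2 (coloured), input and IgG libraries. OTX2 replicate 3 has 5 to 15 peaks per interval, replicates 1 and 2 have 0 to 3, and every input and IgG bar is at 0.

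The number of peaks per library was compared on a log10(peaks + 1) scale. At Gli3 the OTX2 lists averaged 0.78 ± 0.31 (SD, n = 3) against 0.00 ± 0.00 (SD, n = 3) for input, an exact two-sided permutation p of 0.10, which is the smallest that 3 against 3 libraries allow. At Gli2 the values were 0.58 ± 0.34 (SD, n = 3) and 0.00 ± 0.00 (SD, n = 3), with the same exact permutation p of 0.10. At both genes every OTX2 list exceeded every input list, as in 17.0% of all tiles of 0.7 Mb in the genome. The input lists were so short that counts of 0 were what they would give. The permutation p of 0.10 therefore records only that each much longer OTX2 list held a peak there. At Ptch1 the OTX2 mean was 0.56 ± 0.61 (SD, n = 3; exact permutation p = 0.40), and in the Shh interval 0.26 ± 0.45 (SD, n = 3; exact permutation p = 1.00). None of the 4 comparisons passed 0.05, and the p-values were not adjusted. Whether separate litters were used is not stated in the labels, so the spread between these libraries may be technical. The p-values only rank the assignments of the library labels and do not measure that spread.

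The OTX2 lists differed in length, with 1848, 1298 and 22325 peaks in the genome for replicates 1, 2 and 3, and replicate 3 alone drove the larger counts. The headers of OTX2 and input replicate 3 name their tracks in another form, with the word score in them, and its peaks may have been called differently. Replicates 1 and 2 were therefore also read apart from it. Within these 2 replicates Gli3 had 3 and 3 peaks, Gli2 1 and 2, Ptch1 2 and 0, and the Shh interval none. The difference from input at Gli3 was then 0.60 (exact permutation p = 0.33, the smallest that 2 against 2 libraries allow) and at Gli2 0.39 (exact permutation p = 0.33). At Ptch1 it was 0.24 (exact permutation p = 1.00), and in the Shh interval 0.00, since no peak was left.

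Peaks of replicate 3 were denser than the genome average at Ptch1 and Gli3, while the ratios at Gli2 and Shh had intervals that include 1. In replicate 3 the Ptch1 interval had 30.0 peaks per Mb against 8.71 in the genome, a ratio of 3.44 (95% exact interval 1.93 to 5.68). The Gli3 ratio was 2.13 (1.14 to 3.64), the Gli2 ratio 1.31 (0.566 to 2.58) and the Shh ratio 0.441 (0.143 to 1.03). All 4 intervals cover counting error only and treat the peaks of a single library as independent. A difference in density between the loci was not tested. The genome was also cut into tiles of each interval's length. At least 15 replicate 3 peaks were found in 2.62% of 0.5 Mb tiles, as at Ptch1. At least 13 were found in 12.2% of 0.700 Mb tiles, as at Gli3, and at least 8 in 33.0% of them, as at Gli2. At most 5 peaks, as in the Shh interval, were found in 29.5% of 1.30 Mb tiles. Peaks of replicate 1 were 2.60 times (0.955 to 5.65) and of replicate 2 3.08 times (1.00 to 7.18) as dense in the 4 intervals together as in the genome.

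**Figure D2:**
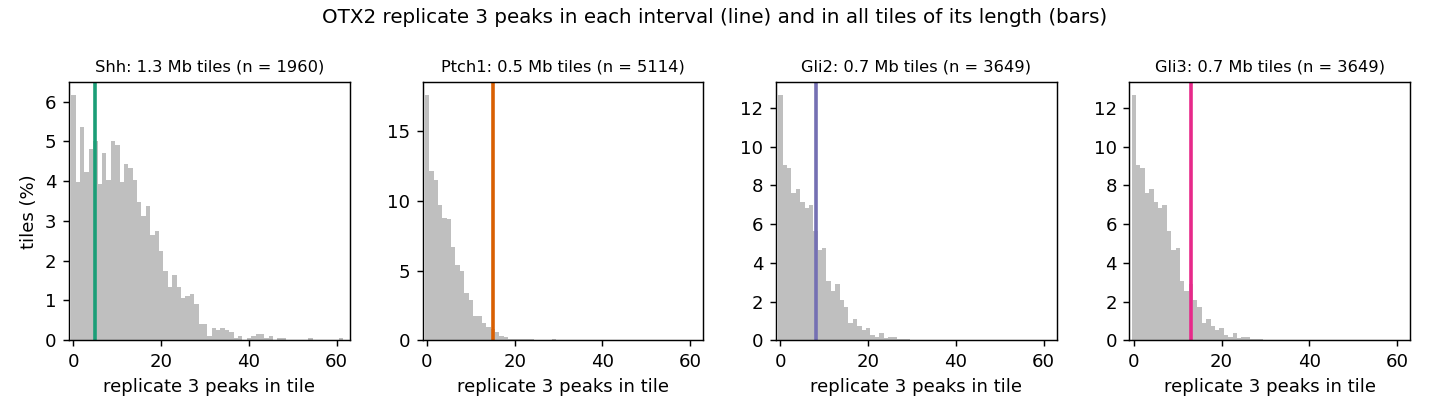
Share of genome tiles (y axis, %) by their number of OTX2 replicate 3 peaks (x axis), for tiles of each interval's length, with the interval itself as a coloured line. The Ptch1 line at 15 peaks lies in the far right of its distribution (median 3.00), the Gli3 line at 13 and the Gli2 line at 8 lie above the median of 5, and the Shh line at 5 lies below the median of 10.

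A stricter measure was the OTX2 region, a group of overlapping peaks from at least 2 of the 3 OTX2 lists with no input or IgG peak. The 41 peak groups of the 4 intervals held 7 such regions (17.1%), against 8.65% of all 22534 groups in the genome. All 3 lists shared 4 of the 41, against 3.50% of groups in the genome. Gli3 held 3 regions, Ptch1 2, Gli2 2 and the Shh interval 0. At least 3 regions, as at Gli3, occurred in 4.85% of 0.700 Mb tiles. At least 2 occurred in 12.4% of these tiles, as at Gli2, and in 8.11% of 0.5 Mb tiles, as at Ptch1. No region occurred in 50.9% of 1.30 Mb tiles, as in the Shh interval. Replicate 3 took part in all 7 regions, and without it 1 region at Gli2 and 1 at Gli3 were left. Without replicate 1 the Ptch1 count was 0, and without replicate 2 the Gli2 count was 1.

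Gli3, which encodes the main repressor of the pathway, was the locus where all regions came from all 3 lists. The first lay on chromosome 13 from 15634781 to 15638316 and was ranked 666, 469 and 570 in replicates 1, 2 and 3. As a percentile of its list, where low values are better, this was 36, 36.1 and 2.55. The second, from 15799127 to 15800214, was ranked 1128, 1005 and 2016, at percentiles 61.0, 77.4 and 9.03. The third, from 15805908 to 15807597, was ranked 401, 972 and 448, at percentiles 21.7, 74.9 and 2.01. Its centre lay 7.08 kb from that of the second. The third region held the best-ranked replicate 3 peak of the 4 intervals, at percentile 2.01.

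Within 2 of these 3 Gli3 regions the peaks of replicates 1 and 2 did not touch. In the first region they lay 367 bp apart inside a single replicate 3 peak of 3536 bp, and in the third 78 bp apart inside a replicate 3 peak of 1690 bp. In the second they shared 29 bp. Over the genome 94.8% of 789 regions found in all 3 lists had a shared base between replicates 1 and 2. The peaks of replicates 1 and 2 were centred 376 and 948 bp below the replicate 3 centre in the first region and 113 and 353 bp below it in the third. The median distance over all regions was 112 bp for replicate 1 (1583 regions) and 115 bp for replicate 2 (1150 regions). Whether the Gli3 regions hold more than 1 binding site was not tested.

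Gli2, which encodes the main activator, had 1 region in all 3 lists and 1 in replicates 2 and 3. The shared region lay on chromosome 1 from 120943412 to 120944718 and was ranked 363, 456 and 566 in replicates 1, 2 and 3. The replicate 1 peak of 199 bp lay wholly within the replicate 2 peak of 238 bp. The other region, from 120806918 to 120808531, was ranked 733 in replicate 2 and 768 in replicate 3 and was 136 kb away. It had no replicate 1 peak, and replicate 1 overlapped 52.0% of the 200 replicate 2 peaks nearest to it in rank. The next best Gli2 peak of replicate 3, from 120878835 to 120879854, was ranked 3136 and was in neither of the other lists.

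Ptch1, which encodes the Hedgehog receptor, had the best-ranked replicate 1 peaks of the 4 loci and none in replicate 2. Its regions lay on chromosome 13 from 63615464 to 63616860, ranked 209 in replicate 1 and 769 in replicate 3, and from 63655512 to 63657075, ranked 316 and 626. Their centres were 40.1 kb apart. The replicate 1 peaks lay 50 and 34.5 bp from the replicate 3 centres. Replicate 2 overlapped 87.5% of the 200 replicate 1 peaks nearest in rank to the first and 82.0% of those nearest to the second, yet its nearest peak was 365 and 325 kb away. Without a read count, signal below the calling threshold in replicate 2 cannot be told apart from no signal.

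**Figure D3:**
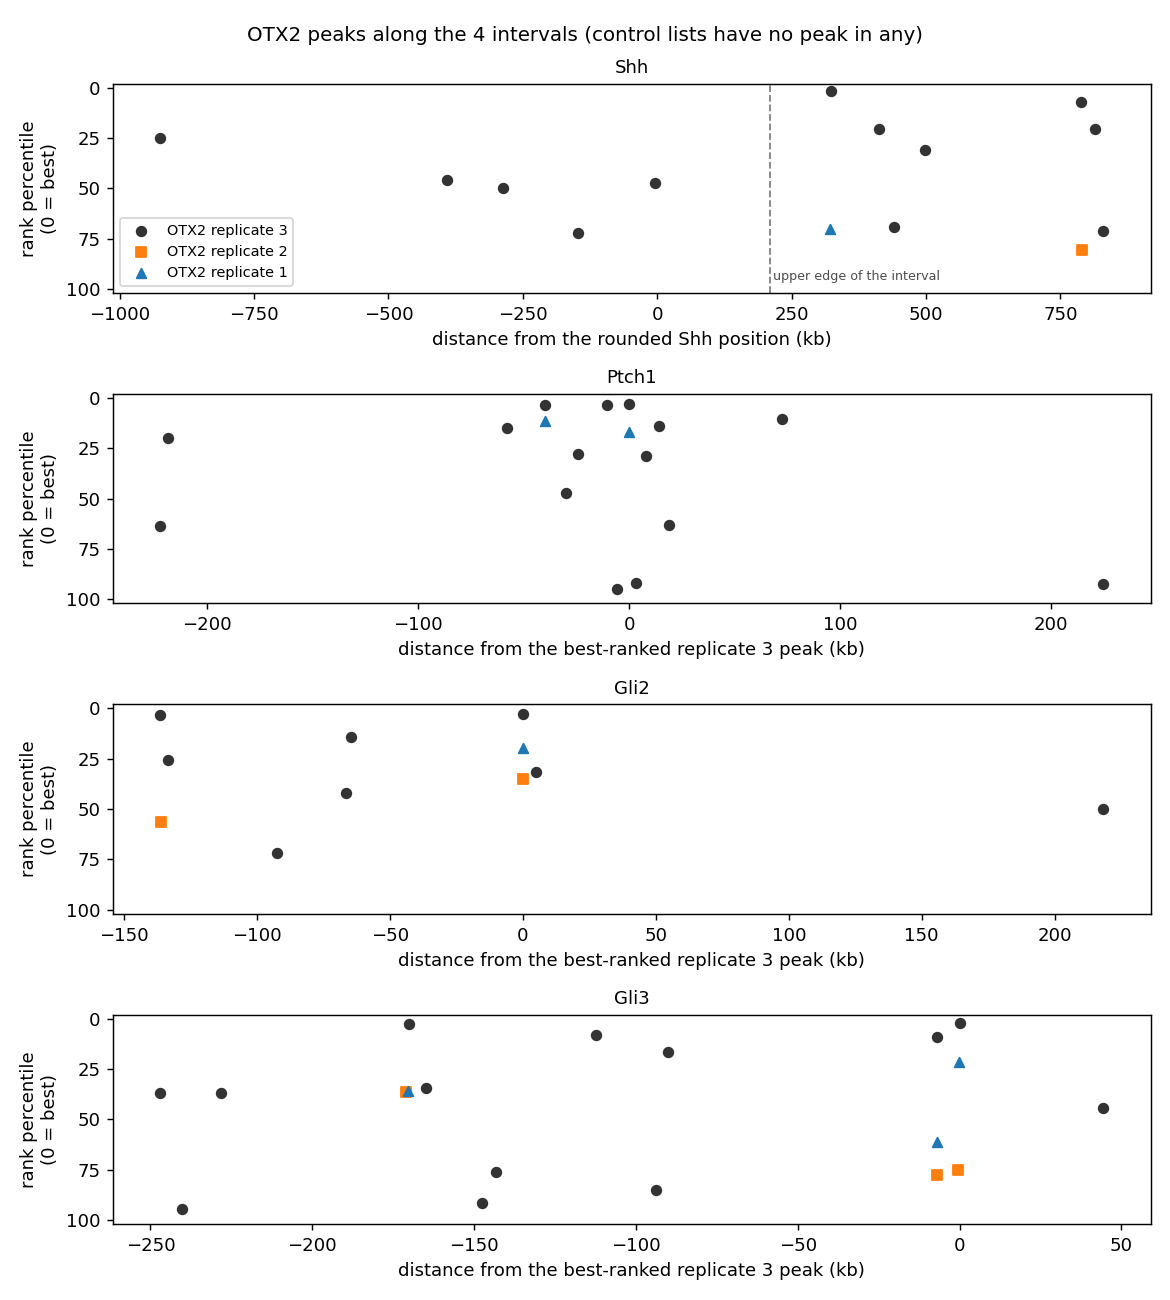
Rank percentile (y axis, 0 is best) of every OTX2 peak against its distance (x axis, kb) from the rounded Shh position or from the best-ranked replicate 3 peak, with symbols for the 3 OTX2 lists. Symbols of 2 or 3 lists stand above one another at 2 places in Ptch1, 2 in Gli2 and 3 in Gli3, and for Shh at 2 places beyond the dashed upper edge of the interval.

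The 5 peaks of the Shh interval were all in replicate 3, at rank percentiles of 24.8 to 72.1 with a median of 47.4, and none was in the best-ranked 10%. The best was ranked 5547 on chromosome 5 from 27865493 to 27866318, 924 kb below the Shh position. Those ranked 10204 (28398242 to 28399018), 10573 (28785800 to 28786817), 11113 (28502908 to 28503701) and 16101 (28642945 to 28643787) followed. The peak ranked 10573 was centred 3.69 kb below 28.79 Mb, a position rounded to 0.01 Mb, so whether it lies in the gene cannot be said from these files. None of the 5 had another replicate 3 peak within 10 kb, while 27.7% of the whole list did. The median distance to the next was 140 kb, against 22.9 kb over the list. Sparse intervals have distant neighbours by construction, and 5 peaks are few. Peaks of this rank were seldom shared anywhere: replicate 1 overlapped 0 to 2.50% of their 200 neighbours in rank.

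The upper, upstream side of Shh was read separately, and a difference from the Shh interval was not tested. The 0.880 Mb beyond the interval held 1, 1 and 7 peaks of replicates 1, 2 and 3 and none of input or IgG. It held 2 OTX2 regions, and at least 2 were found in 15.2% of tiles of that length. The first, from 29111636 to 29113163, was centred 322 kb above the Shh position and ranked 1297 in replicate 1 and 400 in replicate 3, a better replicate 3 rank than any peak of the 4 intervals. Replicate 2 had no peak there, while it overlapped 80.5% of the 200 replicate 3 peaks nearest in rank. The second, from 29577198 to 29581092, was centred 789 kb above and ranked 1047 in replicate 2 and 1606 in replicate 3. Its replicate 2 peak lay 1497 bp above the centre of a replicate 3 peak of 3895 bp. The density of replicate 3 peaks on this side was 0.913 times that of the genome (0.367 to 1.88), and at least 7 such peaks were found in 49.6% of tiles. With the interval extended to 29880000 every OTX2 list held a peak in it, and the difference from input was 0.57 (exact permutation p = 0.10). The peaks of replicates 1 and 2 lay at different sites, 322 and 791 kb from the Shh position, and were not assigned to a gene. Every OTX2 list exceeded every input list in 39.2% of tiles of that length.

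Most peaks of the 2 shorter lists lay in the long one. Replicate 3 overlapped 6 of 6 interval peaks of replicate 1, against 87.9% of that list, and 5 of 5 of replicate 2, against 92.1%. Replicate 2 overlapped 2 of 6 replicate 1 peaks, against 43.0%, and replicate 1 overlapped 2 of 5 replicate 2 peaks, against 61.6%. Replicates 1 or 2 overlapped 7 of 41 replicate 3 peaks (17.1%, 95% exact interval 7.15 to 32.1%), against 8.83% of that list. All 7 were among the 9 interval peaks in the best-ranked 10% of replicate 3, and 0 of the other 32 were overlapped. Over the whole list the shares were 64.6% and 2.64%. The 9 made up 22.0% of the 41, against 10% of the list by definition. In replicates 1 and 2, 0 of 6 and 0 of 5 interval peaks were in the best-ranked 10% of the list. With so few peaks these counts cannot be told apart from a share of 10%, nor from the share in replicate 3. The median rank percentile of the interval peaks was 20.7, 56.5 and 34.2 in replicates 1, 2 and 3. The 2 well-ranked peaks that stood in replicate 3 alone were ranked 787 at Ptch1 (63643999 to 63647399) and 1789 at Gli3 (15693900 to 15695106).

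The replicate 3 peaks of Ptch1, Gli2 and Gli3 lay close together. Another replicate 3 peak was centred within 10 kb of 11 of 15 at Ptch1, 6 of 8 at Gli2 and 10 of 13 at Gli3, against 27.7% of the whole list. The median distance to the next peak was 4.86, 3.82 and 6.65 kb at these loci and 22.9 kb over the list. Dense loci have close neighbours by construction, and spacing was not compared at equal density.

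A few of these peaks were far wider than their rank would give. In replicate 3 better-ranked peaks were wider over the list (Spearman rho between rank and width -0.73 across 22325 peaks, which are not independent). A Ptch1 peak from 63667188 to 63673075 was 5888 bp wide at rank 3070, 5.50 times the median of the 200 peaks nearest in rank, and none of these was as wide. A Gli2 peak from 120946208 to 120951613 was 5406 bp wide at rank 7043, 4.72 times that median, and again none was as wide. It lay 4.85 kb from the centre of the Gli2 region found in all 3 lists. The Ptch1 peak ranked 787 and the Gli3 peak ranked 570 were each 2.45 times as wide as their neighbours in rank. Peaks of 3 kb or more made up 4 of the 41 interval peaks, against 1.16% of the list. Neither the 5888 nor the 5406 bp peak overlapped a peak of replicate 1 or 2. Widths were set by the authors' peak calling, and its settings for replicate 3 are not stated.

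**Figure D4:**
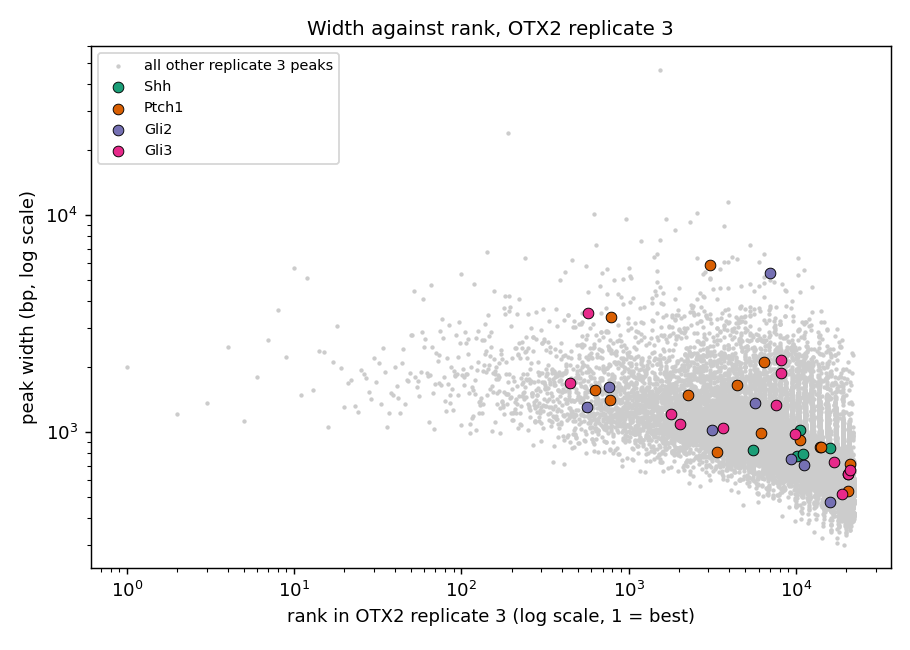
Width in bp (y axis, log scale) against rank (x axis, log scale) of the replicate 3 peaks, with the 4 loci coloured and all other peaks in grey. The Ptch1 peak of 5888 bp and the Gli2 peak of 5406 bp stand above nearly all grey points of their rank, and the Shh peaks, 777 to 1018 bp wide, lie within the cloud.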

How the data were processed

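Peaks were measured in 8 ChIP-seq libraries (3 OTX2, 3 input, 2 IgG; single 50 bp reads, per the labels' protocols), grouped by their titles. Per the file headers each deposited list belongs to 1 library, so peaks were called per sample. A line gives a peak's chromosome, start and end, and its rank in the list. BWA, MACS 1.4 and mm9 are named in the submitters' processing notes, without roles. Thresholds, controls and filters are not stated. The lists hold no score and no read totals, so read depth is unknown and ranks were used only within a list. Positions are 1-based.

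Python 3.11.15, numpy 2.4.6 and scipy 1.17.1 were used. Peaks sharing at least 1 bp overlapped. Peak numbers were compared by exact two-sided permutation of library labels. Genome density used the span between the lowest and highest peak of each chromosome (2562 Mb in all), and tiles were cut from the same spans. Percentages carry Clopper-Pearson 95% intervals. Overlap functions were tested on simulated data. Named were all regions, all peaks of replicates 1 and 2, and the 3 best replicate 3 peaks per interval; the wide peaks and the remaining Shh peaks were named after their values were seen. Members and lists were chosen with earlier results of these data known. The pathway list was used for promoters only.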

Additional observations from a re-analysis of the deposited data

How the results depend on the processing

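Read depth is unknown, so an absent peak cannot be told from one below the calling threshold, and replicate 3 decided most counts. Adding IgG to input as control left the differences at 0.58 for Gli2 and 0.78 for Gli3 and brought both to an exact permutation p of 0.036, the smallest that 3 against 5 libraries allow. All 5 control counts were 0, as their short lists would give, so this p records only that each much longer OTX2 list held a peak there. Every OTX2 list exceeded every control list in 16.4% of 0.7 Mb tiles. Replicate numbers mark experiments, but the input counts were all 0, so whether numbered libraries deviate together could not be checked. With the replicate block the differences stayed at 0.26 for Shh, 0.56 for Ptch1, 0.58 for Gli2 and 0.78 for Gli3, with exact paired permutation p of 1.00, 0.50, 0.25 and 0.25, where 0.25 is the smallest that 3 pairs allow. Counting any 1 list gave 5 regions for Shh, 15 for Ptch1, 8 for Gli2, 13 for Gli3 and 41 in all. Requiring all 3 lists gave 0 for Ptch1, 1 for Gli2 and 4 in all. Over the genome any 1 list gave 22534, all 3 lists 789 and the reported setting 1949. Extending the Shh interval gave 2 regions for Shh. The better-ranked 50% of each list gave 1 region for Gli2 and 5 in all, with 992 in the genome. It moved the density ratio over the 4 intervals from 2.60 to 4.34 in replicate 1, from 3.08 to 2.47 in replicate 2 and from 1.47 to 2.15 in replicate 3, and in replicate 3 from 1.31 to 2.30 at Gli2, from 0.441 to 0.706 at Shh, from 3.44 to 4.59 at Ptch1 and from 2.13 to 2.95 at Gli3. Leaving out each replicate gave 0 to 2 regions for Ptch1, 1 to 2 for Gli2, 1 to 3 for Gli3 and 2 to 6 in all. Over the genome it gave 1150 regions without replicate 1, 1583 without replicate 2 and 759 without replicate 3. In OTX2 lists cut to 1298 peaks the differences from input were 0.00 for Shh, 0.36 for Ptch1, 0.42 for Gli2 and 0.56 for Gli3. The regions of the cut lists, counted so only after seeing the data, numbered 7 in all, against 1117 in the genome. In 200 bp windows at peak centres replicate 3 overlapped 83.3% of the 6 replicate 1 and 60.0% of the 5 replicate 2 interval peaks. No share over the whole lists is given for such windows. Whether these lower values are particular to the loci therefore cannot be said. No result reversed its direction under the alternatives run, but the Shh difference was 0.00 without replicate 3 and in the cut lists.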

Other observations

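The upper edges of the Ptch1 and Shh intervals left out well-ranked replicate 3 peaks. Beyond that of the Shh interval the nearest lay 112 kb outside and was ranked 400. The nearest replicate 3 peak beyond the upper edge of the Ptch1 interval lay 81.0 kb outside it and was ranked 324, better than any replicate 3 peak inside (626 at best), while the last peak inside, 19.1 kb from that edge, was ranked 20652. Beyond the upper edge of the Gli3 interval the next replicate 3 peak was 805 kb away, and its last peak inside, 199 kb from the edge, was ranked 9914. Beyond the upper edge of the Gli2 interval the next peak was 26.2 kb away and ranked 6457, against 11148 for the last one inside. At every edge other than the upper ones of Ptch1 and Shh, the nearest replicate 3 peak outside was ranked 6063 or worse. No peak of any OTX2 list changed its interval when membership was taken by overlap instead of by centre.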
